A study of Mus musculus with 36 samples.

Results

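The comparison set 3 left ventricles of double transgenic mice carrying MKK7D against 3 left ventricles of their own controls, both labelled female and taken at the early time point. The 6 arrays were chosen by their titles and are 6 of the 36 arrays in the series. The transgenic mice carry a floxed MKK7D transgene and a Mer-Cre-Mer transgene, both driven by the αMHC promoter, which is active in heart muscle cells. MKK7D is an activated form of MKK7. Mer-Cre-Mer is a Cre recombinase that works only when tamoxifen binds its estrogen receptor parts, so tamoxifen switches the MKK7D transgene on in heart muscle cells. The controls are littermates that lack both transgenes. All mice had the C57black background and got tamoxifen at 20 mg/kg on 3 days, starting at 12 weeks of age, and early means 4 to 7 days after the first dose. Because the controls had tamoxifen but neither transgene, a change through MKK7D and a change through the active Cre cannot be told apart. Late MKK7D hearts, taken after 2 to 4 weeks, came with 3 female controls of their own (3 arrays in each group). The MKK3bE line carries an activated kinase of the p38 pathway instead of MKK7D and has 2 early female arrays. It is compared with 3 tamoxifen-treated control females whose labels give no time point, called shared control females here. Comparisons were made only with these groups. The other arrays enter the estimate of the spread and the plot of levels by group. They are 11 of mice with a floxed HRas-v12 transgene, an activated Ras, under the same promoter and with Mer-Cre-Mer (early and late, both sexes), 5 of late MKK3bE mice of both sexes and 3 of tamoxifen-treated control males.

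MKK7 is one of the pair of kinases that phosphorylate and switch on JNK, a kinase of the stress branch of MAP kinase signalling. Active JNK phosphorylates c-Jun and related proteins of the AP-1 family, which bind DNA as pairs and drive genes of the immediate early response. In the heart, JNK is known for its activation by stretch, ischemia and pressure overload. The series asked how the adult heart responds when single MAP kinase branches are switched on.

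Each array gave 1 signal per probe set, a set of short probes against 1 transcript, on a linear scale. Changes are differences of group means of log2(signal + 32), transgenic minus control, so they understate the change of dim genes. After a filter on dim probe sets, 12626 genes were tested, each by its brightest probe set. The main fit in limma took the spread from all 36 arrays, and a gene was called at an adjusted p under 0.05. A second fit used the 6 early MKK7D arrays alone. Whether each array stands for its own mouse is not in the labels, and the p-values therefore cover the variation from array to array alone, which may be technical.

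The library labelled control replicate 1 did not match its label as female. Its Xist signal, from the X-inactivation RNA of female cells, was 2316, against 10912 and 17159 in the other controls and 20058 to 25132 in the transgenic hearts. Its Eif2s3y signal, from a Y-linked translation factor gene, was 6018, against 5 to 187 on the other 5 arrays. The Mer parts derive from the estrogen receptor, so the driver's RNA may reach the Esr1 probe set. Esr1 read 7288, 3506 and 294 in control replicates 1, 2 and 3, and 132729, 143792 and 133177 in transgenic replicates 5, 6 and 7. All 3 transgenic arrays thus read far above all 3 controls, as their labels state, with a log2 change of 6.07 (SE 1.60; adjusted p in limma 0.0868 over 36 arrays and 0.0106 over the 6). Across the series 6 arrays, this control included, went against their labels in these genes. The library labelled control replicate 1 is kept below, and the main counts of calls are also given without it. The median within-group SD was 0.20 on the log2 scale over the 6 arrays and 0.275 over all 36. Array pairs correlated at 0.966 to 0.974 within the controls, 0.974 to 0.977 within the transgenic hearts and 0.953 to 0.970 between the groups.

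In early MKK7D hearts the clock genes Nr1d1 and Bhlhe40, the AP-1 gene Fosl2 and the immediate early genes Btg2 and Ier5 rose. The clock gene Cry1, the heme synthesis gene Alad with its neighbour Hdhd3, Mgst1 and the heart transcription factor gene Nkx2-5 fell. In all, 17 genes were called, 0.135% of those tested, of which 11 rose (0.0871%) and 6 fell (0.0475%). The changes of 12 of them were at least 2-fold, and in all 17 the 3 transgenic arrays lay on 1 side of the 3 controls. Such a separation of the groups was seen in 23.4% of all genes tested, and 10.7% had an unadjusted p under 0.05. Without control replicate 1, the calls were 3 genes, 0.0238%: Bhlhe40, Nr1d1 and Alad. The fit on the 6 arrays called 372 genes, 2.95%, with 178 higher (1.41%) and 194 lower (1.54%), and these held all 17. That fit without control replicate 1 called 62 genes, 0.491%, 5 of the 17 among them. The shares of the main fit and of the fit on all 6 arrays are the background for the list counts below.

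**Figure D1:**
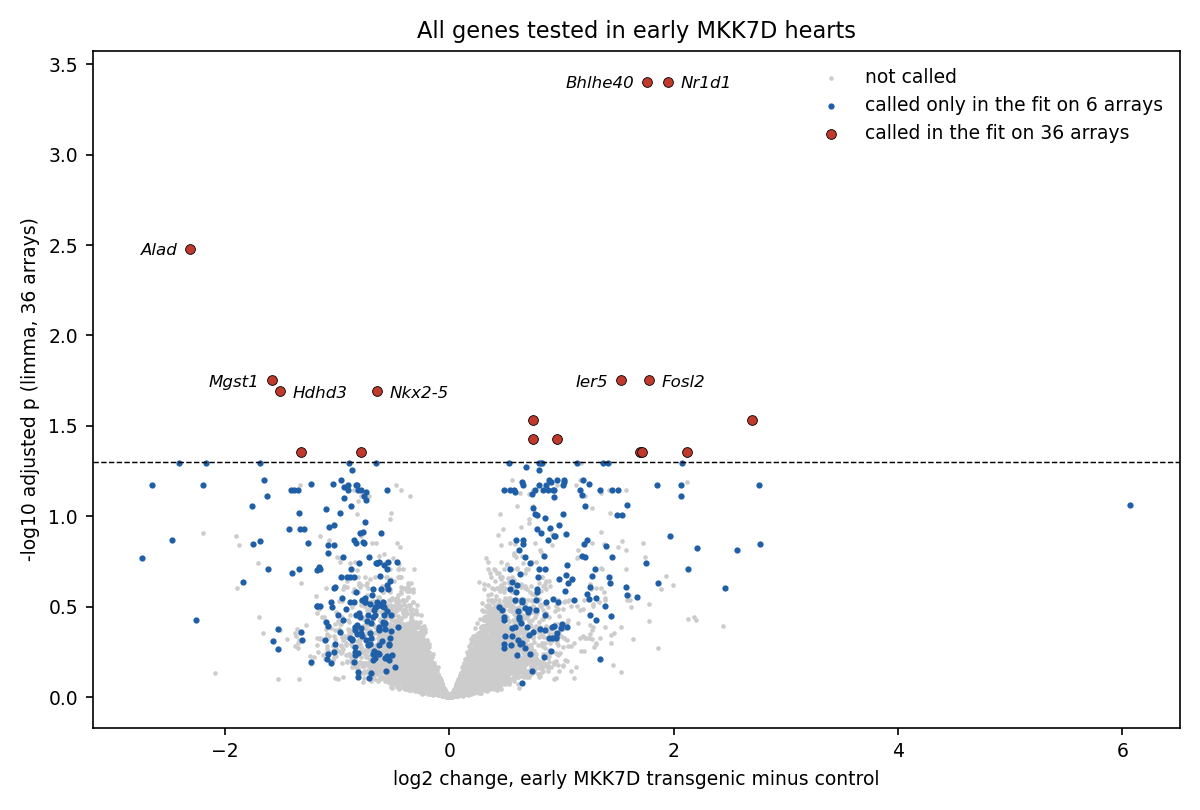
Each point is 1 of the 12626 genes tested: the log2 change in early MKK7D hearts (3 transgenic arrays minus 3 controls) on the x axis and -log10 of the limma adjusted p over 36 arrays on the y axis, with a dashed line at 0.05. The 17 called genes are red, those called only in the fit on the 6 arrays are blue, and Nr1d1, Bhlhe40 and Alad lie highest. The blue point at 6.07 is Esr1.

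**Figure D2:**
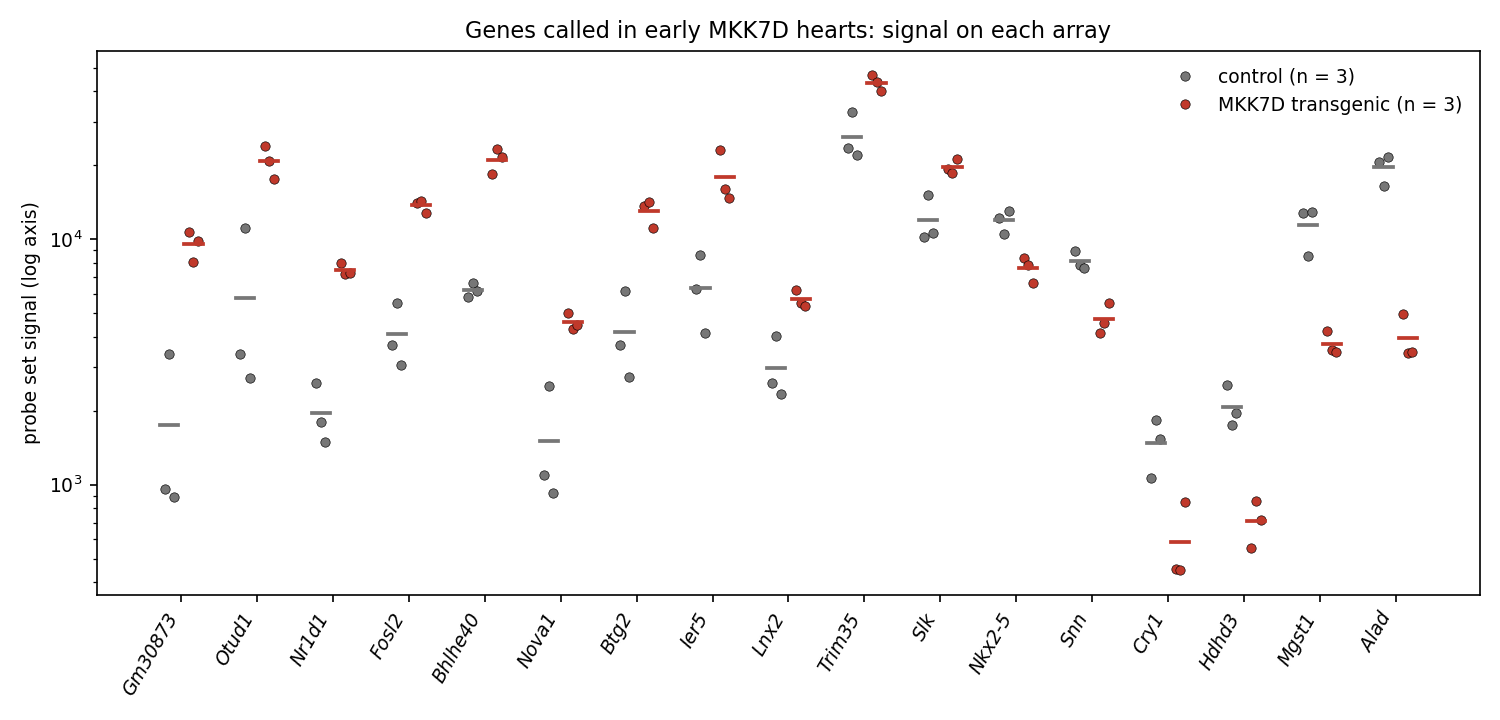
Signals of the 17 called genes on each array (log axis), with 3 control arrays in grey, 3 transgenic arrays in red and group means as lines. The groups do not overlap for any of the 17, and control replicate 2, plotted in the middle from left to right, is the control nearest the transgenic arrays for 10 of the 11 genes that rose.

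The promoters of called genes were searched for sites of the transcription factor families named below, and those of Btg2, Cry1 and Alad are printed because each holds such a site. The windows ran from 250 bases before to 50 bases after each RefSeq start (assembly GRCm38.p6), and 10149 of the 12626 genes tested had at least 1 window, 13020 in all. The cyclic AMP response element (CRE), TGACGTCA, which ATF and Jun proteins can bind, was in 2.79% of all windows and in 1 of 9 windows of the called genes that rose, that of Btg2. The E-box CACGTG, which clock proteins and others bind, was in 9.56% of all windows. It was in 4 of 8 windows of the called genes that fell, which are those of Cry1 and Snn and both of Alad, and in 1 of 9 of those that rose, that of Otud1. The AP-1 site TGANTCA, with N for any base, was in 5.44% of all windows and in 0 of the 17 windows of called genes. These windows are of 9 of the 11 called genes that rose and all 6 that fell. Bhlhe40 and Trim35 had no window and were not searched, and Alad and Mgst1 had more than 1 each. Both strands were read. Shown 5′ to 3′ are the 250 bases before the start for Btg2 (minus strand, chr1:134079156-134079405), Cry1 (minus strand, chr10:85185055-85185304) and Alad (minus strand, chr4:62520064-62520313). The motif is in capitals and begins 166, 60 and 105 bases before the start.
Btg2: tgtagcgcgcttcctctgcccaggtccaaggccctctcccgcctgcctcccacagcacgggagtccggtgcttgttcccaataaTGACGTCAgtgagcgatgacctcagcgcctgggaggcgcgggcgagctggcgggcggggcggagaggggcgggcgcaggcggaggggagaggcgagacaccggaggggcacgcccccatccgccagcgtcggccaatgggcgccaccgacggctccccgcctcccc
Cry1: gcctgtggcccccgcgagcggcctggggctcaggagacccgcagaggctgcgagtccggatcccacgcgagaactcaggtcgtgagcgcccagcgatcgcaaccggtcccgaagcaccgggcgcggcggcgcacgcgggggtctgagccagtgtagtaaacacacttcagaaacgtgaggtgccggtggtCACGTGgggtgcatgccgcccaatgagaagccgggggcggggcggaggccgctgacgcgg
Alad: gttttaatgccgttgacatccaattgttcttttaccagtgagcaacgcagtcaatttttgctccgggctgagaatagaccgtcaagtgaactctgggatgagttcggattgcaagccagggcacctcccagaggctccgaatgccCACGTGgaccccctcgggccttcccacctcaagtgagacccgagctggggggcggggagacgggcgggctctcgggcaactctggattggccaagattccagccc
These are matches of letters, counted over few windows, and no binding was measured. Among genes higher in the fit on the 6 arrays, 7.92% of 202 windows held the AP-1 site, 4.46% the CRE and 6.44% the E-box. Among genes lower in that fit, 4.69%, 0.469% and 7.04% of 213 windows held them. The ATF4 composite TGATGNAA, bound by the integrated stress response factor ATF4, was in 2.34% of all windows, 3.96% of the windows of the higher genes and 2.35% of those of the lower genes. The CArG box of serum response factor was in 1.30% of all windows, and in 4.46% and 2.35% of the windows of these genes.

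Clock genes held the calls with the smallest p-values. Nr1d1 encodes REV-ERBα, the repressor of Bmal1 transcription. Its signal was 2601, 1807 and 1489 in the controls and 8008, 7229 and 7247 in the transgenic hearts. All 3 transgenic arrays lay above all controls, within a narrow range. Nr1d1 rose by 1.95 log2 units (SE 0.27, 3.86-fold, adjusted p = 0.000394 in limma). Bhlhe40 encodes DEC1, a transcriptional repressor of clock output that hypoxia and stress also induce. It read 5809, 6627 and 6164 in the controls and 18366, 23193 and 21661 in the transgenic hearts, again with no overlap. It rose by 1.76 (SE 0.24, 3.38-fold, adjusted p = 0.000394). Cry1, a repressor arm of the clock, read 1060, 1826 and 1536 in the controls and 452, 447 and 853 in the transgenic hearts. Transgenic replicate 7 lay nearest the controls. Cry1 fell by 1.32 on the log2 scale (SE 0.28, adjusted p = 0.0439, and 0.0735 without control replicate 1).

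The clock list had 20 members tested, with 2 called higher, 1 called lower and a median change of 0.05, against -0.001 over all genes tested. The fit on the 6 arrays added Dbp and Ciart as higher and Nfil3 as lower. In that fit 1.41% of all genes tested were higher and 1.54% lower. Dbp, an output activator of the clock, read 9549, 9211 and 12031 against 26797, 20580 and 25550, a change of 1.24. Ciart, a clock repressor, read 1085, 850 and 750 against 2791, 2352 and 3012, a change of 1.58. Nfil3, which opposes Dbp on the same DNA sites, read 3994, 5379 and 3172 against 1906, 1841 and 1622, a change of -1.18. The groups did not overlap in any of these 3 genes, whose adjusted p over 36 arrays was 0.287, 0.274 and 0.198.

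The early controls themselves stood apart from the shared control females in clock genes. Early controls minus shared females came to -1.56 for Nr1d1 (log2 units, adjusted p in limma 0.00702), -2.36 for Ciart (adjusted p = 0.0315) and 1.56 for Nfil3 (adjusted p = 0.0322). Over all genes, 185 (1.47%) differed between these control groups, and 33, 52 or 203 without shared female replicate 4, 1 or 2. The Nr1d1 signal of the early transgenic hearts, 7229 to 8008, was above the 5536 to 5876 of the shared females and within the 6827 to 9488 of the late MKK7D controls. Measured against the shared females, the early change of Nr1d1 was 0.39 (adjusted p = 0.39), that of Ciart was -0.78 and that of Dbp -0.37. Nr1d1 is the 1 called gene of the 17 whose early controls differed from the shared females. For Bhlhe40 the early transgenic hearts were also above the shared females, which read 8460 to 10211, by 1.21 (adjusted p = 0.00346). Bhlhe40 read 20522 to 23799 in the late controls and 18507 to 18892 in the late transgenic hearts. Cry1 was lower than in the shared females by the fit, with a change of -1.13 (adjusted p = 0.0155). Labels give no time of day of harvest, and its part in these values was not tested.

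**Figure D3:**
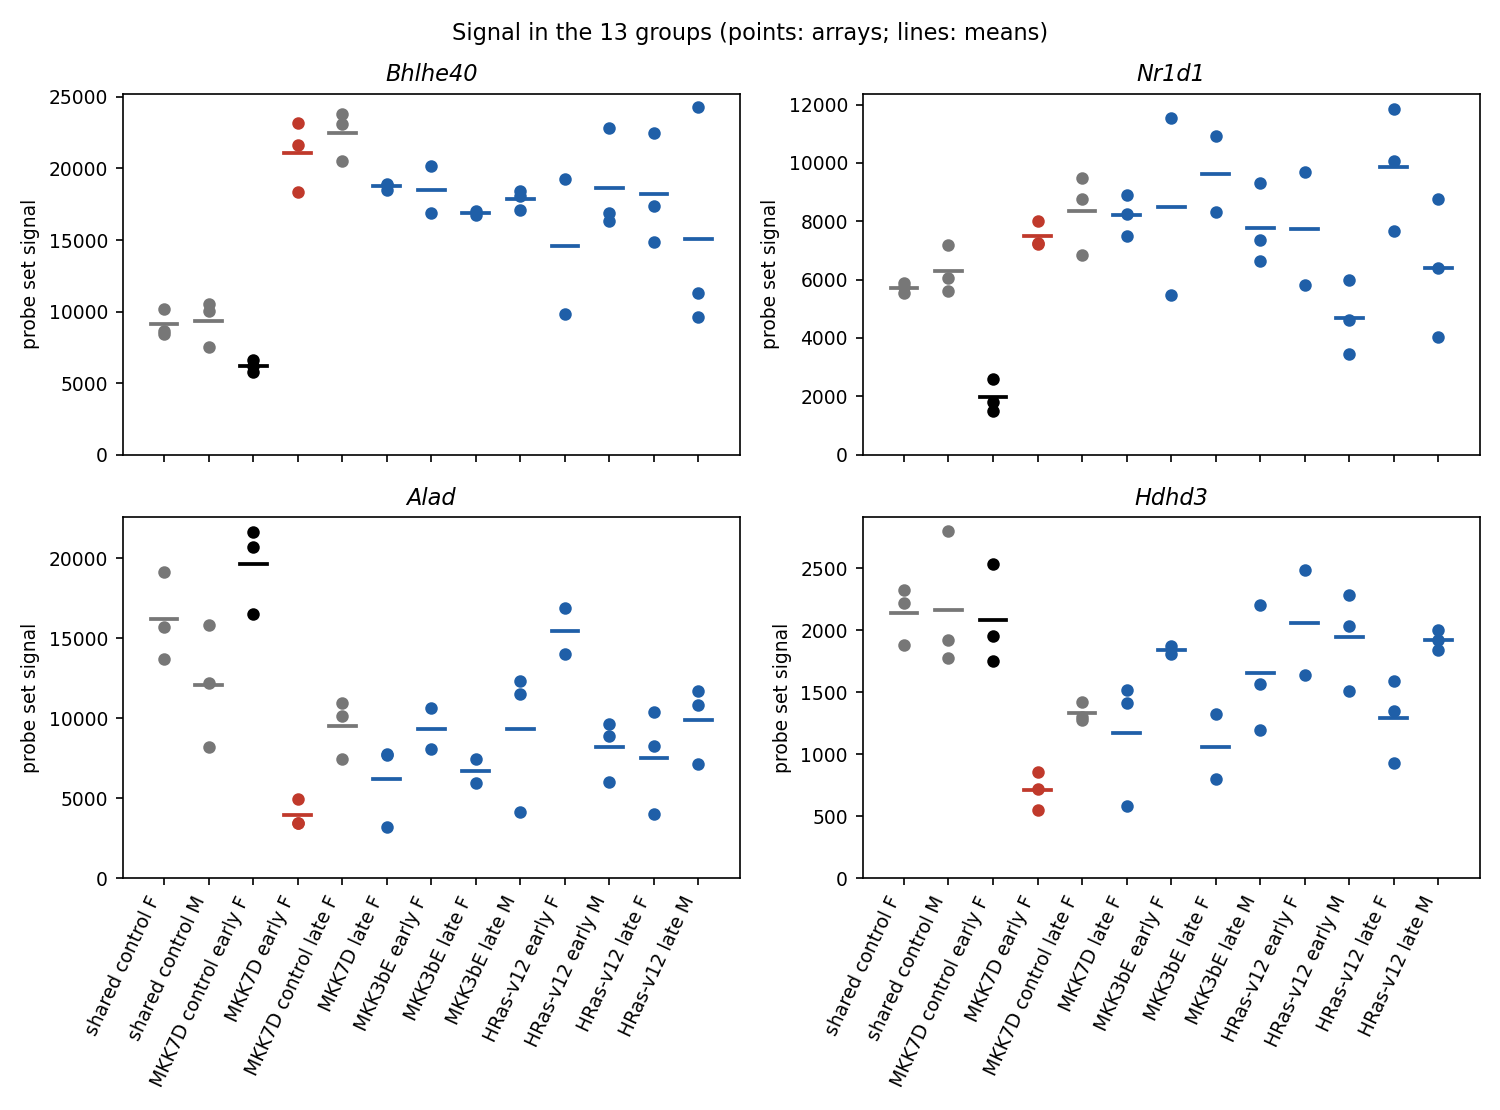
Signals of Bhlhe40, Nr1d1, Alad and Hdhd3 on all 36 arrays by group (F female, M male), with group means as lines and linear axes from 0. Early MKK7D controls are black, early MKK7D hearts red, other controls grey and other transgenic groups blue. Nr1d1 is lowest in the early MKK7D controls (1489 to 2601), and mean Alad and Hdhd3 signals are lowest in the early MKK7D hearts. Late MKK7D replicate 15 read 3217 for Alad and 586 for Hdhd3.

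The AP-1 gene Fosl2 and the immediate early genes Btg2 and Ier5 rose. Fosl2 encodes Fra-2, a Fos family partner of Jun. It read 3715, 5516 and 3061 in the controls and 14067, 14298 and 12769 in the transgenic hearts, with no overlap. Fosl2 rose by 1.78 (SE 0.33, 3.43-fold, adjusted p = 0.0177, and 0.124 without control replicate 1), and by 1.95 against the shared females (adjusted p = 0.00138). A further Fosl2 probe set stood at 0.68. Btg2, an antiproliferative immediate early gene, read 3693, 6143 and 2756 against 13664, 14226 and 11134. Control replicate 2 was highest among the controls but still below all transgenic arrays. Btg2 rose by 1.70 (SE 0.36, 3.24-fold, adjusted p = 0.0439, and 0.211 without control replicate 1). Ier5, an immediate early gene that acts with heat shock factor, read 6273, 8598 and 4127 against 23101, 16050 and 14668. It was lowest in control replicate 3 and highest in transgenic replicate 5. Ier5 rose by 1.53 (SE 0.27, 2.89-fold, adjusted p = 0.0177, and 0.0804 without control replicate 1).

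Of 13 AP-1 and ATF genes tested, 1 was called higher and none lower, 11 lay above 0, and the median change was 0.56. Over all genes tested the median was -0.001, and 0.0871% were called higher. In the fit on the 6 arrays 5 were called, all higher: Fosl2, Junb, Maff, Atf3 and Mafk. That fit called 1.41% of all genes higher. Junb, a Jun family member, read 1534, 1031 and 1101 against 3021, 3705 and 2634, a change of 1.34 (adjusted p = 0.072 over 36 arrays, 0.0112 over 6). Its groups did not overlap, but early controls minus shared females was -1.43 (adjusted p = 0.0292), and against those females the change was -0.10. Atf3, a stress-induced repressor of the ATF family, read 1181, 1974 and 978 against 4678, 4381 and 2215. Transgenic replicate 7 lay near control replicate 2, and the change was 1.42 (adjusted p = 0.218 over 36 arrays, 0.0406 over 6). Jun, the main substrate of JNK in this family, read 13120, 16698 and 9112 against 25099, 17717 and 14536, a change of 0.56 (adjusted p = 0.376). These signals overlapped between the groups, but those of its further, dimmer probe set did not. That set read 5615, 6928 and 5061 in the controls and 10703, 9870 and 9431 in the transgenic hearts, a change of 0.78.

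The kinases of the JNK pathway did not pass the test. Map2k4, which encodes MKK4, the other kinase of JNK, read 3608, 4145 and 4108 against 3612, 4752 and 3872. Mapk8, Mapk9 and Mapk10, the genes of JNK1, JNK2 and JNK3, had changes of 0.03, -0.06 and -0.02 with adjusted p from 0.947 to 0.99. The brightest probe set of each of these 4 genes, on which the test rests, overlapped between the groups. Among their further probe sets, 1 of 4 for Mapk8 separated higher, at 668, 944 and 1045 against 1160, 1345 and 1266 (change 0.51). For Mapk9, 1 of 2 separated lower, at 2990, 3166 and 3223 against 2479, 2747 and 2290 (change -0.32). The array table used names no probe set for Map2k7, so the MKK7 gene and its transgene were not analysed here. Of 23 JNK pathway genes tested, none was called, and the median change was -0.03. The fit on the 6 arrays called Dusp8, a phosphatase of JNK and p38, and Gadd45g, a stress sensor upstream of these kinases, higher, and Gadd45a lower. In that fit 1.41% of all genes tested were higher and 1.54% lower. Dusp8 read 5460, 11111 and 7625 against 15772, 15280 and 14835, a change of 0.98 (adjusted p = 0.112 over 36 arrays). Gadd45g read 1897, 2626 and 2075 against 5336, 4159 and 3776, with no overlap. The sets separated in the opposite direction for Gadd45a, at 3155, 2285 and 3572 against 1622, 1180 and 1855. Among 13 genes of p38 and ERK kinases the median change was -0.12, none was called, and Mapkapk3, a kinase activated by p38, was lower in the fit on the 6 arrays at -0.65.

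Of 21 ERK feedback and target genes, none was called in the main fit, and the median was 0.19. In the fit on the 6 arrays 3 were higher, against 1.41% of all genes tested. Egr3, an immediate early zinc finger factor, read 210, 934 and 132 against 2254, 2648 and 1931. Myc, the growth regulator, read 209, 1253 and 492 against 2648, 2087 and 2825. Both were highest among the controls in replicate 2, and the groups did not overlap. Their changes were 2.77 and 2.21 (adjusted p = 0.143 and 0.149 over 36 arrays, 0.0284 and 0.0387 over 6), and a further Egr3 probe set stood at 0.58. The third was Ier3, a stress-induced survival gene, with a change of 0.60.

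The other called genes that rose were Otud1, Nova1, Lnx2, Trim35, Slk and Gm30873. Otud1, a deubiquitinase, read 3418, 11094 and 2726 in the controls and 23875, 20825 and 17539 in the transgenic hearts. Control replicate 2 was more than 3 times as high as either other control but below all transgenic arrays. Otud1 rose by 2.12 (SE 0.45, 4.36-fold, adjusted p = 0.0439, and 0.211 without control replicate 1). Nova1, an RNA-binding splicing regulator best known from neurons, read 1091, 2522 and 922 against 4982, 4286 and 4461. Control replicate 2 was again the highest control, and Nova1 rose by 1.72 (SE 0.36, 3.29-fold, adjusted p = 0.0439). Changes under 2-fold were those of Lnx2 and Trim35, both of the ubiquitin ligase type, and Slk, a kinase of the cytoskeleton, which rose by 0.96, 0.75 and 0.74 (adjusted p = 0.0373, 0.0292 and 0.0373). The 3 further Slk probe sets stood at 0.31 to 0.44. Gm30873, a gene model outside the naming rule, is given to complete the 17. It read 960, 3391 and 889 against 10686, 8041 and 9844 and rose by 2.70 (SE 0.53, 6.49-fold, adjusted p = 0.0292).

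Control replicate 2 was the highest of the 3 controls in 10 of the 11 genes that rose and the lowest in 4 of the 6 that fell. Without it 102 genes were called, 16 of the 17 among them. Without control replicate 3 or a single transgenic replicate, 5 to 7 genes were called, 3 to 5 of the 17 among them. Alad, Bhlhe40 and Nr1d1 kept their call when any of the 6 arrays was left out.

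The genes with the next smallest p-values were not called, and their adjusted p over 36 arrays was 0.0506 or above. Tubb2a, a beta tubulin, read 6562, 7452 and 4086 against 15338, 15118 and 14937, a change of 1.37. Prkg1, the kinase of cyclic GMP signalling, read 3960, 5987 and 3763 against 10161, 9793 and 9688, a change of 1.14. Prkca, protein kinase Cα, read 3287, 2957 and 2702 against 5344, 5354 and 5180, a change of 0.83. In all 3 the transgenic arrays were close to each other and above all controls. Slc25a23, a mitochondrial carrier of adenine nucleotides, and Nfe2l2, which encodes the antioxidant factor NRF2, had changes of 0.80 and 0.53. All 5 had an adjusted p of 0.0506, and all were called in the fit on the 6 arrays.

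Alad gave the largest fall in fold among the called genes. It encodes δ-aminolevulinate dehydratase, the second enzyme of heme synthesis. Its signal was 20697, 16529 and 21625 in the controls and 4938, 3452 and 3473 in the transgenic hearts. The lowest control was more than 3 times the highest transgenic array. Alad fell by 2.31 on the log2 scale (SE 0.36, 4.97-fold, adjusted p = 0.00331, and 0.0392 without control replicate 1), and a further Alad probe set stood at -1.46. Against the shared females, which read 13726 to 19138, the change was -2.03 (adjusted p = 0.0021). Hdhd3, a hydrolase of the haloacid dehalogenase family, read 2534, 1751 and 1953 against 554, 860 and 720, with no overlap. Hdhd3 fell by 1.51 (SE 0.29, 2.85-fold, adjusted p = 0.0204, and 0.187 without control replicate 1). Against the shared females its change was -1.56 (adjusted p = 0.00219). The late MKK7D controls read 7432 to 10957 for Alad and 1279 to 1420 for Hdhd3. Late transgenic replicates 13, 14 and 15 read 7757, 7693 and 3217 for Alad, and 1410, 1515 and 586 for Hdhd3.

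Hdhd3 and Alad are direct neighbours in the RefSeq gene order of GRCm38.p6, a fact looked up after their values were seen. Of the other 8 genes nearest to the pair, 4 were bright enough to be tested, and none was called. Pole3, next to Alad, read 4235, 3963 and 3454 against 3869, 4742 and 4629, a change of 0.18 (adjusted p = 0.723). Wdr31, on the other side, read 515, 572 and 449 against 292, 360 and 265, a change of -0.69 (adjusted p = 0.519). Rgs3, farther out, read 5602, 4449 and 4432 against 4164, 4098 and 3774, a change of -0.26 (adjusted p = 0.618). In these 2 of the 4 the transgenic arrays lay below all controls, as in 12.1% of all genes tested. Prpf4 overlapped, with a change of -0.26 (adjusted p = 0.59).

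Mgst1, a microsomal glutathione transferase that detoxifies lipid peroxides, read 12737, 8520 and 12872 against 4216, 3538 and 3455. No transgenic array reached the lowest control, and Mgst1 fell by 1.58 (SE 0.29, 2.99-fold, adjusted p = 0.0177, and 0.133 without control replicate 1). Its change was -1.76 against the shared females (adjusted p = 0.00138). Of 23 metallothionein and antioxidant genes tested, none was called in the main fit and 5 lay above 0. Gsta3, another glutathione transferase, read 1743, 2821 and 2472 against 452, 276 and 851, and Mt1, a metal-binding stress protein, read 53618, 49699 and 43920 against 30734, 23290 and 22857. Both were lower in the fit on the 6 arrays, with changes of -2.20 and -0.95, while Nfe2l2 of the same list was higher. Of all genes tested, 1.54% were lower and 1.41% higher in that fit.

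Nkx2-5 encodes a homeodomain factor that specifies and maintains heart muscle. It read 12235, 10518 and 13075 in the controls and 8368, 7856 and 6606 in the transgenic hearts. The groups did not overlap, and Nkx2-5 fell by 0.65 (SE 0.12, 1.57-fold, adjusted p = 0.0204, and 0.133 without control replicate 1). It was the 1 called gene of 22 transcription factors of heart muscle identity, whose median was -0.07. Other members with the smallest p were Tbx5, Tbx20 and Mef2c, with changes of -0.55, 0.39 and -0.35 and adjusted p of 0.403, 0.407 and 0.453. The late MKK7D controls read 7065 to 8213 for Nkx2-5, in the range of the early transgenic hearts. Snn, which encodes the small membrane protein stannin, fell by 0.79 (SE 0.17, adjusted p = 0.0439), while a further, much dimmer Snn probe set, at 124 to 536 on the 6 arrays, stood at 0.22. Against the shared females the change of Snn was -0.26 (adjusted p = 0.352).

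The 9 next genes on the lower side were not called. Smim3, a small membrane protein gene, had the largest change of these at -2.17, with 7206, 3633 and 5934 against 1258, 1079 and 1189 (adjusted p = 0.0506). Against the shared females it stood at -0.63. Ddit4, which encodes the mTORC1 inhibitor REDD1, read 16892, 19857 and 12297 against 7001, 4202 and 4506, a change of -1.65 (adjusted p = 0.0631). Its groups did not overlap, and against the shared females the change was -1.54. Cyfip2, a member of the actin-regulating WAVE complex, had a change of -1.69 (adjusted p = 0.0506). The rest, Tex261, Ankrd9, Adamts15, Cmbl, Eml2 and Retreg3, had changes from -1.23 to -0.66, and all 9 were called in the fit on the 6 arrays.

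**Figure D4:**
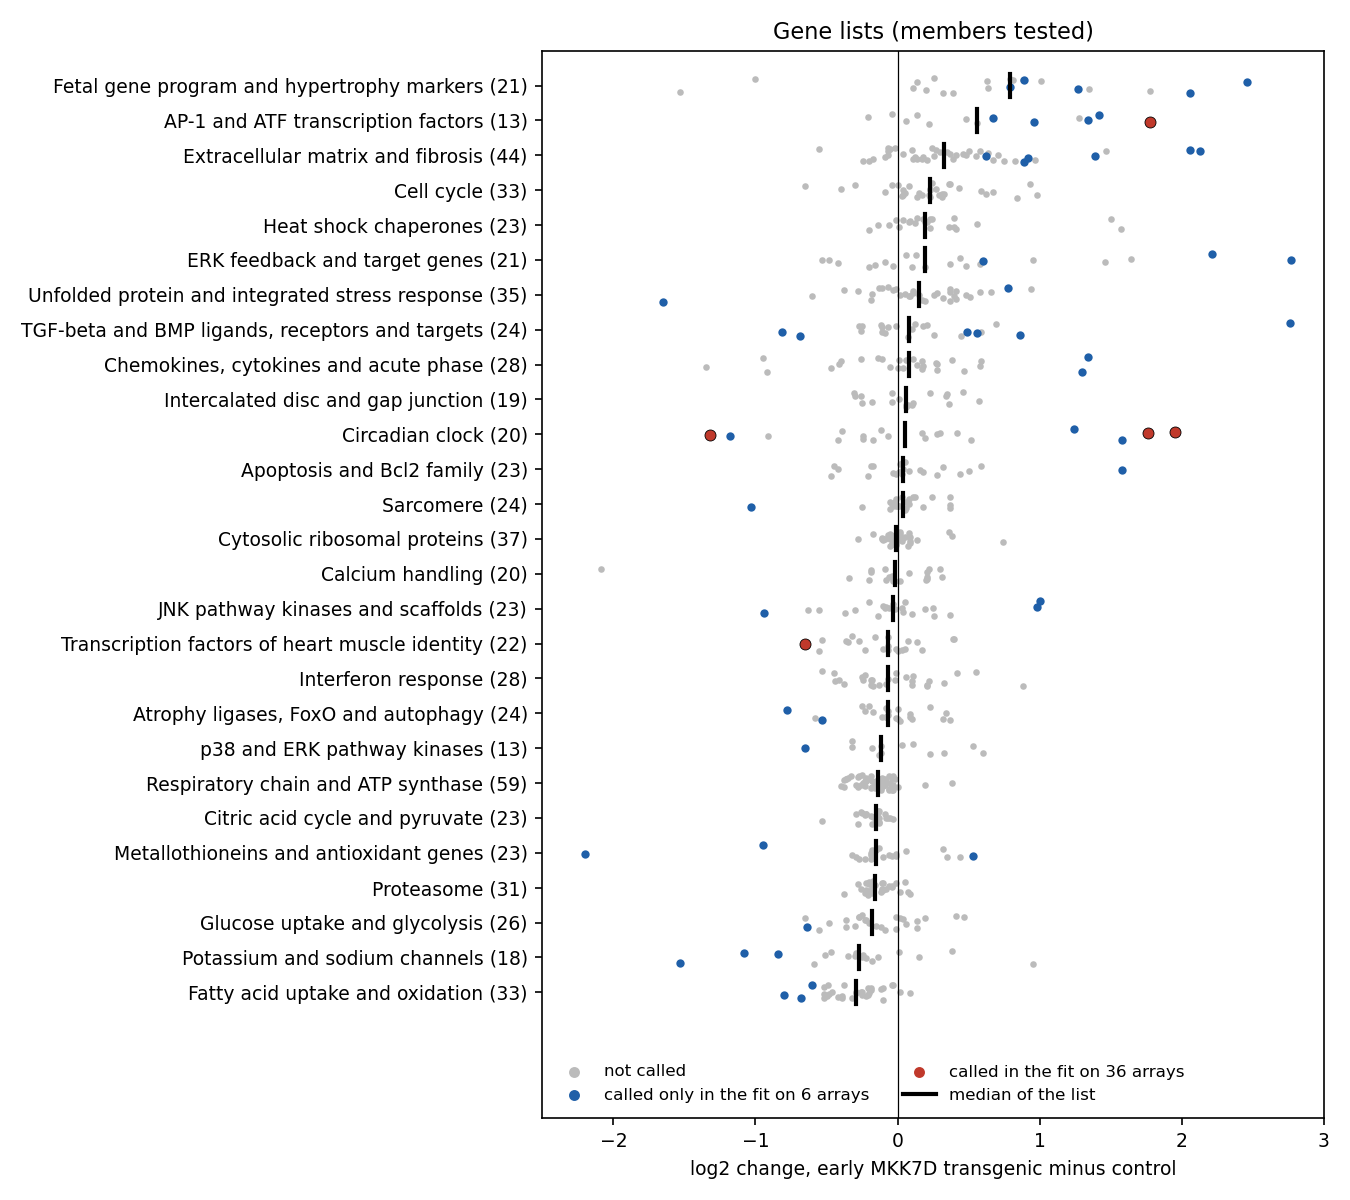
Log2 change in early MKK7D hearts of each tested member of 27 gene lists, with the number tested in brackets and the median of the list as a black bar. Red members were called in the fit on 36 arrays and blue ones only in the fit on the 6 arrays. Medians run from -0.29 for fatty acid genes to 0.79 for the fetal program.

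Genes of the fetal program and of hypertrophy did not pass the main test, although most were higher. Of 21 tested, 19 lay above 0 and the median was 0.79. In 12 of 21 the 3 transgenic arrays lay above all controls, against 11.3% of all genes tested. Nppa, the gene of atrial natriuretic peptide, read 78386, 141435 and 71340 against 159644, 173695 and 146159, a change of 0.79 (SE 0.74, adjusted p = 0.747). Nppb, of the B-type peptide, read 61199, 85697 and 38053 against 115300, 127433 and 109928, a change of 1.01 (adjusted p = 0.326). Both separated, with control replicate 2 nearest the transgenic hearts. Myh7, the slow myosin heavy chain, read 49058, 148764 and 24840 against 158261, 143382 and 133752, so that control replicate 2 lay among the transgenic arrays (change 1.35, adjusted p = 0.25). Acta1, skeletal α-actin, had a change of 0.63 (adjusted p = 0.717).

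In the fit on the 6 arrays 5 fetal program genes were called, all higher, where 1.41% of all genes tested were higher. Nmrk2, a nicotinamide riboside kinase induced in stressed heart muscle, read 987, 2672 and 756 against 8311, 7835 and 5444, a change of 2.46. Ccn2, the matricellular growth factor CTGF, read 19535, 47296 and 15062 against 102139, 108703 and 90766, a change of 2.06 (adjusted p = 0.0669 over 36 arrays, 0.0141 over 6). The gap was wide in both genes. Rcan1, a feedback inhibitor of calcineurin, read 17721, 25749 and 11925 against 45126, 43988 and 38824, a change of 1.27. Xirp1 and Flnc, which encode actin-binding proteins of the intercalated disc and Z-disc, had changes of 0.79 and 0.89. Their adjusted p over 36 arrays was 0.0555 and 0.116.

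Of 44 genes of the extracellular matrix none was called in the main fit, 34 lay above 0, and the median was 0.33. In 12 of the 44 the transgenic arrays lay above all controls, against 11.3% of all genes. The fit on the 6 arrays called 6, all higher: Ccn2, Thbs1, Col6a2, Col15a1, Vcan and Col4a1. It called 1.41% of all genes higher. Thbs1, which encodes thrombospondin 1, an activator of latent TGF-β, read 895, 2240 and 1185 against 4940, 9720 and 4441, a change of 2.13. Vcan, a matrix proteoglycan, read 1962, 4312 and 2035 against 5742, 8593 and 6454, a change of 1.39. Transgenic replicate 6 was the highest array for both. Fn1, which encodes fibronectin, overlapped, at 9243, 10997 and 7875 against 7989, 10786 and 7640 (change -0.09, adjusted p = 0.964). A further Fn1 probe set, dim at 413, 430 and 28 against 441, 474 and 388, stood at 1.01.

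Among 24 genes of TGF-β and BMP signalling the median was 0.08 and none was called in the main fit. The ligand Tgfb2 had the largest change of the list. It read 2055, 5870 and 1422 against 20384, 16494 and 16350, a change of 2.76 (SE 0.66, 6.76-fold, adjusted p = 0.0669 over 36 arrays, 0.0112 over 6). Its 3 further probe sets stood at 2.07 to 2.88, and against the shared females the change was 3.34. The fit on the 6 arrays also called the receptor Tgfbr1 and the feedback inhibitors Smad7 and Skil higher, at 0.86, 0.56 and 0.49. It called the BMP ligand Bmp6 and the BMP inhibitor Smad6 lower. Of all genes tested that fit called 1.41% higher and 1.54% lower. Bmp6 read 5213, 5464 and 5633 against 3463, 3042 and 2773, a tight pair of groups with a change of -0.81. Smad6 read 3101, 4083 and 3909 against 2336, 2259 and 2213, a change of -0.69.

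Most fuel and energy genes had small changes below 0. Of 33 genes of fatty acid uptake and oxidation 2 lay above 0 and the median was -0.29. In 19 of them the transgenic arrays lay below all controls, against 12.1% of all genes tested. None of the fuel and energy genes was called in the main fit. Eci1, an enoyl-CoA isomerase of β-oxidation, read 57958, 43943 and 65644 against 37439, 31534 and 34381, a change of -0.68 (adjusted p = 0.575 over 36 arrays, 0.0389 over 6). Slc27a1, a fatty acid transporter, and Acacb, which makes the malonyl-CoA that restrains fatty acid entry into mitochondria, were also lower in the fit on the 6 arrays, at -0.80 and -0.60. Of all genes tested, 1.54% were lower in that fit. Of 23 citric acid cycle genes 0 lay above 0 (median -0.15), and of 59 respiratory chain and ATP synthase genes 2 did (median -0.14). None of these was called in the fit on the 6 arrays. The transgenic arrays lay below all controls in 5 of the 23 and in 8 of the 59, the latter share close to the 12.1% of all genes. Of 26 genes of glucose uptake and glycolysis 8 lay above 0, and the median was -0.18. The groups separated in 12 of these, lower in 10 and higher in 2. The insulin-responsive glucose transporter Slc2a4 read 50086, 46434 and 54978 against 32433, 34289 and 30280, a change of -0.64 (adjusted p = 0.569 over 36 arrays, 0.0165 over 6).

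Ion channel genes held 3 members lower in the fit on the 6 arrays, against 1.54% of all genes, and none called in the main fit. Of 18 potassium and sodium channel genes 4 lay above 0, and the median was -0.27. Scn4b, a sodium channel subunit, read 4896, 2865 and 4994 against 1313, 1222 and 1718, a change of -1.53 (adjusted p = 0.418 over 36 arrays, 0.0112 over 6). Kcnip2, a subunit of the transient outward potassium channel, read 39592, 24954 and 44028 against 18785, 15394 and 15885, a change of -1.08. A further Kcnip2 probe set, at 15725, 10891 and 15068 against 5896, 5705 and 5019, stood at -1.31, and a dim one, at 162 to 728, at 0.64. Kcnv2, a modifying potassium channel subunit, had a change of -0.84. Control replicate 2 was the lowest control in all 3. Gja1, which encodes the gap junction protein connexin 43, overlapped, at 58834, 55906 and 62765 against 61518, 73755 and 73154 (change 0.23, adjusted p = 0.415). Its 5 further probe sets ran from -0.41 to 0.58. Of 20 calcium handling and 19 intercalated disc genes, none was called in either fit.

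Marker lists of cell types had no member called in the main fit. Fewer cells of a type and less RNA per cell cannot be told apart in these arrays. The heart muscle markers gave a median change of -0.02 over 12 genes, and their summed signal overlapped, at 1492490 to 1882942 in the controls and 1510163 to 1756519 in the transgenic hearts. Myl2, the light chain of ventricular muscle, read 140006, 140618 and 180928 in the controls and 159067, 173093 and 138817 in the transgenic hearts, bright on every array. Myl7, the light chain of atrial muscle, read 815, 3953 and 29091 in the controls and 876, 12239 and 335 in the transgenic hearts. Control replicate 3 and transgenic replicate 6 were thus high in Myl7, and also in Myl4 and Sln of the atrial list, 1 array in each group. The macrophage markers gave a median of -0.36, with 1 of 18 above 0. Their summed signal was 86987 to 111737 in the controls and 66430 to 82186 in the transgenic hearts. The fit on the 6 arrays called C1qb and C1qc, complement genes of macrophages, lower, at -0.68 and -0.56. It also called 1 of 14 fibroblast markers and 1 of 7 adipocyte markers lower, and 1.54% of all genes tested. Endothelial markers had a median of -0.26 with 2 of 15 above 0, and their summed signal was 193031 to 218144 against 165857 to 180651. Adipocyte markers, with 2 of 7 above 0, summed to 108378 to 118659 against 84022 to 93930. Fabp4 is a member of both the endothelial and the adipocyte list, so their sums are not independent. Schwann and nerve markers, with 1 of 5 above 0, summed to 7317 to 9055 against 5992 to 6768. In the macrophage, endothelial, adipocyte and nerve lists the summed signal of every transgenic heart lay below all controls, and their part in the changes above was not tested. Fibroblast markers had a median of 0.11 over 14 genes and overlapped in sum. The other 7 lists had medians from -0.39 to 0.39 and overlapped in sum.

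Against all 3 late controls, the change in late MKK7D hearts was smaller for each of the 17 called genes, and 13 had the same sign. These genes were picked by their early change, so the count cannot show whether the response faded. Late control replicates 8 and 9 also went against their label, as given below. For Fosl2 they read 11100 and 12022 and replicate 10 read 4394, against 9221 to 11234 in the late transgenic hearts. Late controls also lay far apart for Gm30873 (640 to 5291), Nova1 (1044 to 4150) and Otud1 (5207 to 22391). With replicate 10 alone the late change of Bhlhe40 was -0.13. Whether all 17 changes were smaller against replicate 10 alone is not given here. None of the 12626 genes was called late (0%), with 643 at an unadjusted p under 0.05 in limma. The difference between the early and the late change was called for 2 genes, 0.0158%. Bhlhe40 differed by 2.01 (adjusted p = 0.0225): its change was 1.76 early and -0.26 late. Arrdc3, an arrestin-domain adaptor of receptor trafficking, differed by 1.26 (adjusted p = 0.0225), with 0.68 early and -0.58 late. Its early signal was 5750, 7702 and 5944 in the controls and 9077, 10238 and 11788 in the transgenic hearts. Late control replicates 8 and 9 had Esr1 signals of 106402 and 91291, against 953 in replicate 10, so they went against their label. With replicate 10 as the only late control, the difference was 1.89 for Bhlhe40 (SE 0.42, adjusted p = 0.234) and 1.14 for Arrdc3 (SE 0.27, adjusted p = 0.245). Both sizes were near those above, and neither was called with 1 array in that group. The 3 genes called there all had a lower early change: Adamts8, a secreted protease gene (-4.94), 1600012P17Rik (-3.64) and Zfyve28 (-2.30), against -1.27, -1.72 and -1.03 with all 3 late controls. Without early control replicate 1, transgenic replicate 6 or transgenic replicate 7, 0 genes differed, with 472 to 584 at an unadjusted p under 0.05.

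In early MKK3bE hearts against the shared control females, 790 genes were called, 6.26%, and 488, 428 or 577 without shared female replicate 4, 1 or 2. Of the 17 genes called in early MKK7D hearts, 15 had the same sign there, and Fosl2, Bhlhe40 and Gm30873 were called in both. Some of the 15 were near 0 there, such as Mgst1 at -0.05 and Slk at 0.05. The share of all genes tested with the same sign in both lines is not given here. The controls of the lines differ, so the difference between the changes was tested, and 9 genes were called, 0.0713%, with 1 higher in MKK7D (0.00792%) and 8 lower (0.0634%). Nkx2-5 was the 1 gene among them that was also called in early MKK7D hearts, at -0.65 in MKK7D and 0.35 in MKK3bE. Camk2b, a calmodulin-dependent kinase, stood at 0.46 in MKK7D and -1.64 in MKK3bE. Shisa3 (0.75 and 5.18), the amine oxidase gene Maoa (0.23 and 3.15) and the small GTPase gene Rrad (-0.55 and 1.76) had lower changes in MKK7D. Without early MKK7D control replicate 1 the 9 calls became 4, without shared female replicate 1 they became 5, and the MKK3bE side rests on 2 arrays.

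**Figure D5:**
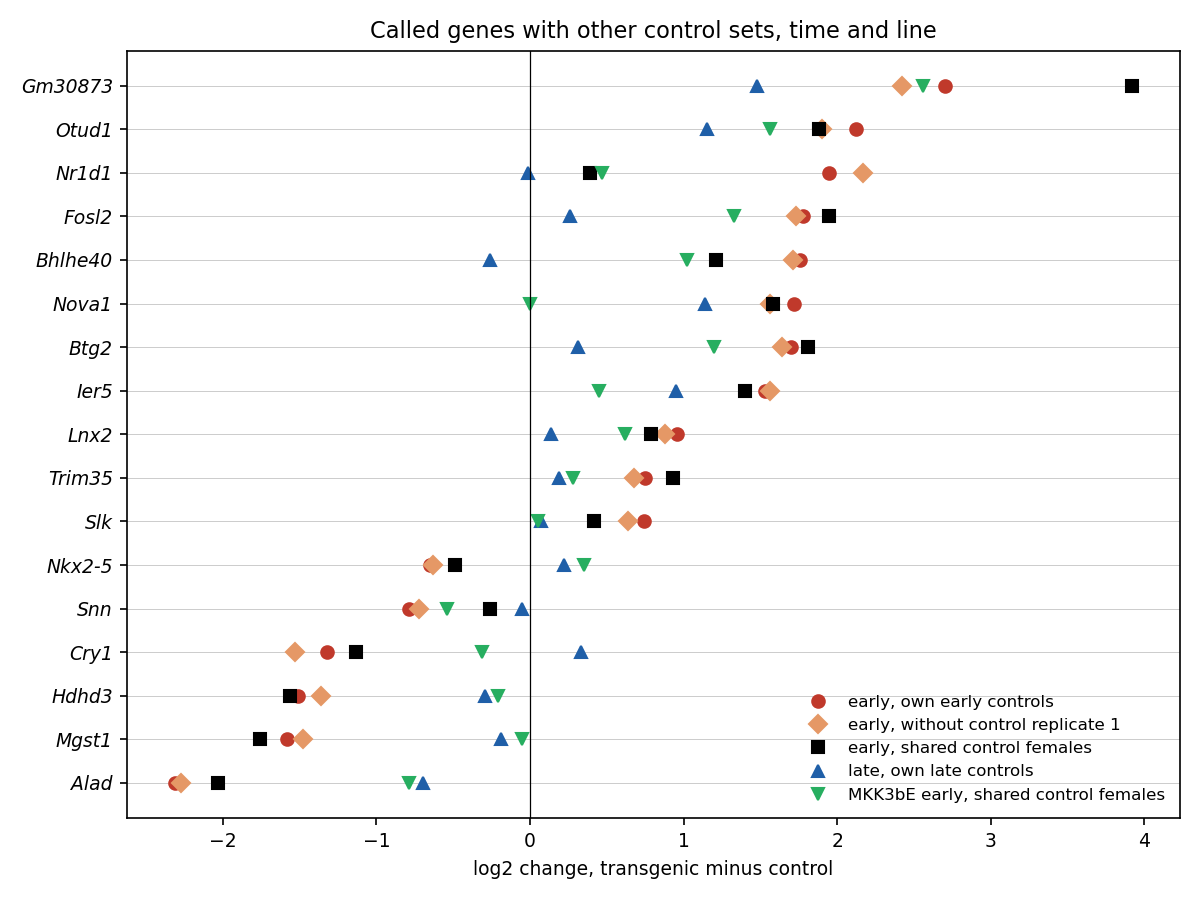
Log2 change of the 17 called genes in early MKK7D hearts against their own controls (red circles), without control replicate 1 (orange diamonds) and against the shared control females (black squares), beside the late MKK7D change (blue triangles) and the early MKK3bE change (green triangles). Nr1d1 reads 1.95 against its own controls and 0.39 against the shared females, and late changes are smaller in size for all 17. The genes were picked by their early change, and late control replicates 8 and 9 went against their label.

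Set against the shared control females, 896 genes were called in early MKK7D hearts, 7.1%, with 452 higher (3.58%) and 444 lower (3.52%). This comparison and that of MKK3bE share the same 3 control arrays. Without shared female replicate 4 the calls were 355, without replicate 1 they were 323, and without replicate 2 they were 780. The transgenic arrays here are those by which the 17 genes were picked, so the counts that follow are no independent check. All 17 genes kept their sign with all 3 females and without any 1 of them, and 14 were called with all 3 (12 to 13 without 1). Nr1d1, Snn and Slk (change 0.42, adjusted p = 0.0883) were not called with all 3. Nppa stood 2.81 above the shared females (adjusted p = 0.0218), whose Nppa signals were far apart at 3428, 29365 and 116006. Without replicate 2, the array at 3428, the Nppa change was 1.45 (adjusted p = 0.143). It was 2.99 without replicate 1 (adjusted p = 0.051) and 3.98 without replicate 4 (adjusted p = 0.00453). Against these females the fetal list had a median of 0.98, the matrix list 0.78 and the fatty acid list -0.51.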

How the data were processed

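Left ventricular RNA was hybridised to arrays by the authors, and the deposited values are probe set signals (linear intensity). MAS5, version not given in the sources used here, made them per the submitters' processing notes. Each array has a mean of 2500 after 2% of probe sets are trimmed at each end, so no further scaling was applied. Of 45101 probe sets, 34945 had 1 gene symbol in GEO's platform annotation, 932 had several and 9160 none, and 64 were array controls. For 34741 the symbol was updated through RefSeq. From log2(signal + 32), the upper 60% of probe sets by mean over 36 arrays was kept (mean of at least 8.802, a signal of 414.3), and the brightest probe set per gene was used. A model with 13 group means was fitted with limma 3.58.1 (R 4.3.3), moderated by eBayes with trend (23 residual and 4.61 prior degrees of freedom), so all groups share 1 estimate of the spread. Every adjusted p printed is Benjamini-Hochberg over 12626 genes. Counts from alternatives with another filter, scaling or pseudocount rest on the genes tested there, 9608 to 18193. The fit was also run on simulated data with independent normal noise, and the outcome is not given here. The number of arrays limits the precision.

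Named are the 15 largest rises and 15 largest falls among called genes with 1 symbol that is no clone name and no overlap between the groups, filled by smallest p where fewer were called. Up to 4 members of each list with a called member and a fixed set of JNK, fetal program and label genes were added, and for differences of changes the 6 largest in each direction. Genes described from a list with no called member were taken because the fit on the 6 arrays called them or because they are its best known members, and were chosen after their values were seen. Genes, lists and tests were chosen with earlier results of these data known. Of 941 list symbols, 851 were on the array. Of the 17 called genes, 7 had more than 1 probe set past the filter, with 9 further ones in all, of which 1 had the opposite sign. The Gapdh 3 prime to 5 prime signal ratio was 0.798 to 0.895 on the 6 arrays, and no 2 of the 36 columns were identical. Alternatives covered the pseudocount, filter, scaling, trend, array weights, arrays fitted, controls used and threshold, and each early array and each shared female was left out in turn.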

Additional observations from a re-analysis of the deposited data

Results flagged for a closer look

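The change of 2 genes differed between the early and the late MKK7D hearts by a test of the difference itself (limma adjusted p under 0.05). Early minus late was 2.01 for Bhlhe40 and 1.26 for Arrdc3 on the log2 scale. Late control replicates 8 and 9 went against their label, and with replicate 10 as the only late control the differences were 1.89 and 1.14. Mean Bhlhe40 signal was 6200 in the early and 22480 in the late controls, and 21073 and 18744 in the transgenic hearts.

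The change of 9 genes differed between early MKK7D and early female MKK3bE hearts by the same kind of test. MKK7D minus MKK3bE was 2.10 for Camk2b, -4.43 for Shisa3, -2.93 for Maoa and -2.32 for Rrad. It was -1.98 for the acetyltransferase gene Naa50, -1.51 for the elongation factor gene Ell2, -1.25 for 2310030G06Rik, -0.994 for Nkx2-5 and -0.644 for Strap. Strap lies outside the naming rule and completes the 9. The 2 sides rest on different controls and on 3 and 2 transgenic arrays.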

How the results depend on the processing

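All 17 called genes kept their sign under every alternative in which they were tested. For most alternatives this was fixed in advance, because the groups of these genes do not overlap. Leaving out arrays, weighting them, fitting fewer arrays, or changing the filter, trend or threshold could not change a sign. Nor could another pseudocount while the probe set stayed the same. A sign was free to change only with quantile normalization, the mean of a gene's probe sets or the shared females. Alad and Bhlhe40 kept their call under all 24 alternatives and Nr1d1 under 20. Without 1 early array at a time, 3 to 102 genes were called (3 without control replicate 1, 102 without control replicate 2), 0 to 4 differed early against late and 4 to 10 differed from MKK3bE. The count of 17 became 27 in the upper 40% of probe sets, 372 on the 6 early arrays, 62 on those without control replicate 1 (an alternative chosen after seeing the data) and 74 on the 15 arrays of the MKK7D line and the shared females. It became 123 without the 6 arrays against their labels, 747 with array weights, 53 with the mean of a gene's probe sets and 896 against the shared females. Without shared female replicate 4, 1 or 2 (also chosen after seeing the data) the last count was 355, 323 or 780. At an adjusted p under 0.01 it was 3 and under 0.10 it was 130, by the threshold itself. Early against late gave 4 without those 6 arrays and 375 with array weights. With late control replicate 10 alone it gave 3, all lower, where all late controls gave 2, both higher, and no gene was shared. Against MKK3bE the counts were 98 without those arrays, 137 with array weights and 5 without the intensity trend. Apart from the thresholds, the cause was not tested. The spread differs between the sets of arrays, at a median SD of 0.20 in the 6 arrays and 0.306 in the 11 HRas-v12 arrays. No paired analysis was possible because control replicates 1, 2 and 3 and transgenic replicates 5, 6 and 7 share no number.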

Other observations

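Tnfrsf12a, which encodes the TWEAK receptor Fn14, read 13318, 14638 and 6367 in the controls and 42794, 28673 and 27170 in the early MKK7D hearts, with no overlap. Its change was 1.58 (SE 0.42, limma adjusted p = 0.0868 over 36 arrays, 0.0217 over the 6), and a further probe set stood at 1.67. It was 1 of 23 apoptosis genes tested, whose median was 0.04. Chac1, a glutathione-degrading enzyme induced by ATF4, read 1588, 1350 and 1753 against 2590, 2687 and 2790. All 3 transgenic arrays lay above the controls, and the change was 0.78 (adjusted p = 0.253 over 36 arrays, 0.0296 over 6). Chac1 was the 1 higher gene called in the fit on the 6 arrays among 35 of the unfolded protein and integrated stress response. Their median was 0.15, and Ddit4 of the same list was lower in that fit. Of all genes tested, 1.41% were higher and 1.54% lower in it.

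Of the cytokine list 28 genes were tested and none was called in the main fit. Socs3, a feedback inhibitor of cytokine signalling, read 1549, 901 and 1070 against 2037, 3876 and 2956, a change of 1.30. Ccl2, the chemokine that recruits monocytes, read 517, 467 and 331 against 978, 1405 and 1079, a change of 1.34. Neither gene overlapped between the groups, and both were called in the fit on the 6 arrays (adjusted p = 0.0312 and 0.0305). Of all genes tested, 11.3% separated higher and 1.41% were called higher in that fit. Of 31 proteasome genes 4 lay above 0, with a median of -0.16, and against the shared control females the median was 0.04. The cytosolic ribosomal protein genes gave a median of -0.01 over 37 tested, and the cell cycle genes 0.23 over 33, with none called in either fit. The interferon response list had a median of -0.07 over 28 genes, with none called in either fit.

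Mylk4, a myosin light chain kinase of heart muscle, read 38750, 28547 and 47071 against 18098, 16069 and 20828. It was the 1 of 24 sarcomere genes called in the fit on the 6 arrays, which called 1.54% of all genes tested lower. Its early MKK7D change was -1.03 (adjusted p = 0.0176 in that fit, and 0.563 over 36 arrays). Its change in early MKK3bE hearts was -4.31. Ulk1, a kinase that starts autophagy, and Depp1, a FoxO target, were lower in the same fit, at -0.53 and -0.78, among 24 atrophy, FoxO and autophagy genes with a median of -0.07. In each of these 3 genes the transgenic arrays lay below all controls, as in 12.1% of all genes tested.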
